A study of Homo sapiens with 15 samples.

Results

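The genes described here are AXL, MET and other receptor tyrosine kinases outside the ERBB family, with ligands of theirs, that have been tied to drug-tolerant melanoma. They were chosen by symbol, by a rule that uses no measured value, though with earlier results of these data known: AXL, TYRO3, GAS6, MET, PDGFRA, PDGFRB, FGFR1, FGF2, KIT and DDR2. Of these 10 symbols, 9 were found among the 17360 gene symbols of the 15 libraries, and KIT was not analysed here. The libraries are bulk RNA sequencing of A375, an established human melanoma line with mutant BRAF, in 5 groups of 3. The series concerns resistance to MAPK pathway inhibitors in melanoma, and none of the sample labels gives treatment with one.

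The first experiment holds 9 libraries: A375 cells overexpressing VAV1 and given saracatinib, A375 cells overexpressing VAV1 and given vehicle, and A375 cells with an empty vector and given vehicle. The second holds 6 libraries: A375 cells with RAC1P29S and A375 cells with an empty vector, both untreated. VAV1, which is normally found in blood cells, loads RAC1 with GTP. RAC1P29S is an activated RAC1 that recurs in melanoma, and saracatinib inhibits the SRC family of kinases. The labels give no dose, duration, vector promoter or clone, and no group joins the empty vector with saracatinib. Each group is stated to be a biological triplicate. Whether the cells were transduced separately for each is not said, and the p-values rest only on how far these 3 cultures vary.

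Receptor tyrosine kinases bind ligands outside the cell and then phosphorylate themselves and their adaptors, which feeds the RAS, phosphoinositide 3-kinase and SRC pathways. When a drug blocks mutant BRAF or the kinase MEK below it, signalling from another receptor can go around the block, and the receptor is then called a bypass receptor. AXL and MET are known for this in melanoma, and high AXL with low MITF and SOX10 marks a dedifferentiated melanoma state.

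Each library summed to between 14443918 and 16262759 normalized counts, and values are given as deposited, as log2 of the normalized count plus 1 (log2 value). Genes were tested where 3 or more libraries reached a normalized count of 10, and all 9 genes did so in both experiments. Values are not per transcript length, so levels are compared between groups and never between genes, and the experiments were scaled separately, so levels are not tested across them. VAV1 stood at log2 values of 14.10, 14.16 and 14.11 in VAV1 saracatinib cells and 13.93, 13.86 and 13.94 in VAV1 vehicle cells, against 1.90, 2.49 and 2.28 in empty-vector vehicle cells. The genotype field of the RAC1P29S samples gives the empty vector, while their titles give RAC1P29S. RAC1 stood at 14.95, 14.89 and 14.95 in the libraries titled RAC1P29S, against 11.87, 11.90 and 11.88 in untreated empty-vector cells, so the titles were followed. Of the melanoma markers, SOX10, MITF, PAX3 and MCAM were present in every library, at 141 normalized counts or more for PAX3, while the pigment genes PMEL and MLANA were low, with at most 43.8 and 20.9. In bulk RNA, fewer cells of a type and less RNA per cell cannot be told apart.

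Promoters of AXL and MET are shown here because they are the receptors among the 9 genes that passed as higher both in VAV1 vehicle cells and in RAC1P29S cells. They are the 250 bases before the annotated start, from RefSeq on GRCh38.p14, plus strand, and capitals mark the 1 match to a motif searched for. The lines give MET at chr7:116671946-116672195, AXL at chr19:41218973-41219222 and the second annotated AXL start at chr19:41226505-41226754.
MET: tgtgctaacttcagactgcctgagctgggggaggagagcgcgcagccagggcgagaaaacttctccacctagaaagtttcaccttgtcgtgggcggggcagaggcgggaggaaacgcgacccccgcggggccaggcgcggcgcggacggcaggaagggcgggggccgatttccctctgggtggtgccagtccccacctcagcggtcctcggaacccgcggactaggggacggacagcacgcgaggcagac
AXL, first start: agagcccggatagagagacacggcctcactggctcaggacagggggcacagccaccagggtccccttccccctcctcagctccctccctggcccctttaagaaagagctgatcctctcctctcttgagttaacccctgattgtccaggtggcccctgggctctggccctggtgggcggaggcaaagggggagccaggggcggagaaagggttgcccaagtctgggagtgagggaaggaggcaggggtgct
AXL, second start: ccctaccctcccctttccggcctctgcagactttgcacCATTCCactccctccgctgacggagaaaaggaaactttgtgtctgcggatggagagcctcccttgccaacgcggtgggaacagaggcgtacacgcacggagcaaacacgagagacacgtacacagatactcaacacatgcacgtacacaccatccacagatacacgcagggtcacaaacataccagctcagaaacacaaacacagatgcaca
The capitals spell, on the plus strand, the TEAD motif GGAATG of the minus strand. TEAD and AP-1 factors are known to act at many genes of dedifferentiated melanoma. In windows that run 250 bases before to 50 bases after the start, GGAATG on either strand was in 14% of 35116 RefSeq promoters (4928), and the AP-1 motif TGANTCA was in 7.71% (2707). For 8 of the 9 genes the table held 13 such windows. GGAATG was in 1 of them, that of the second AXL start, and TGANTCA in 3, 1 each of DDR2, PDGFRA and TYRO3. A match is a description of letters and does not show binding.

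**Figure D1:**
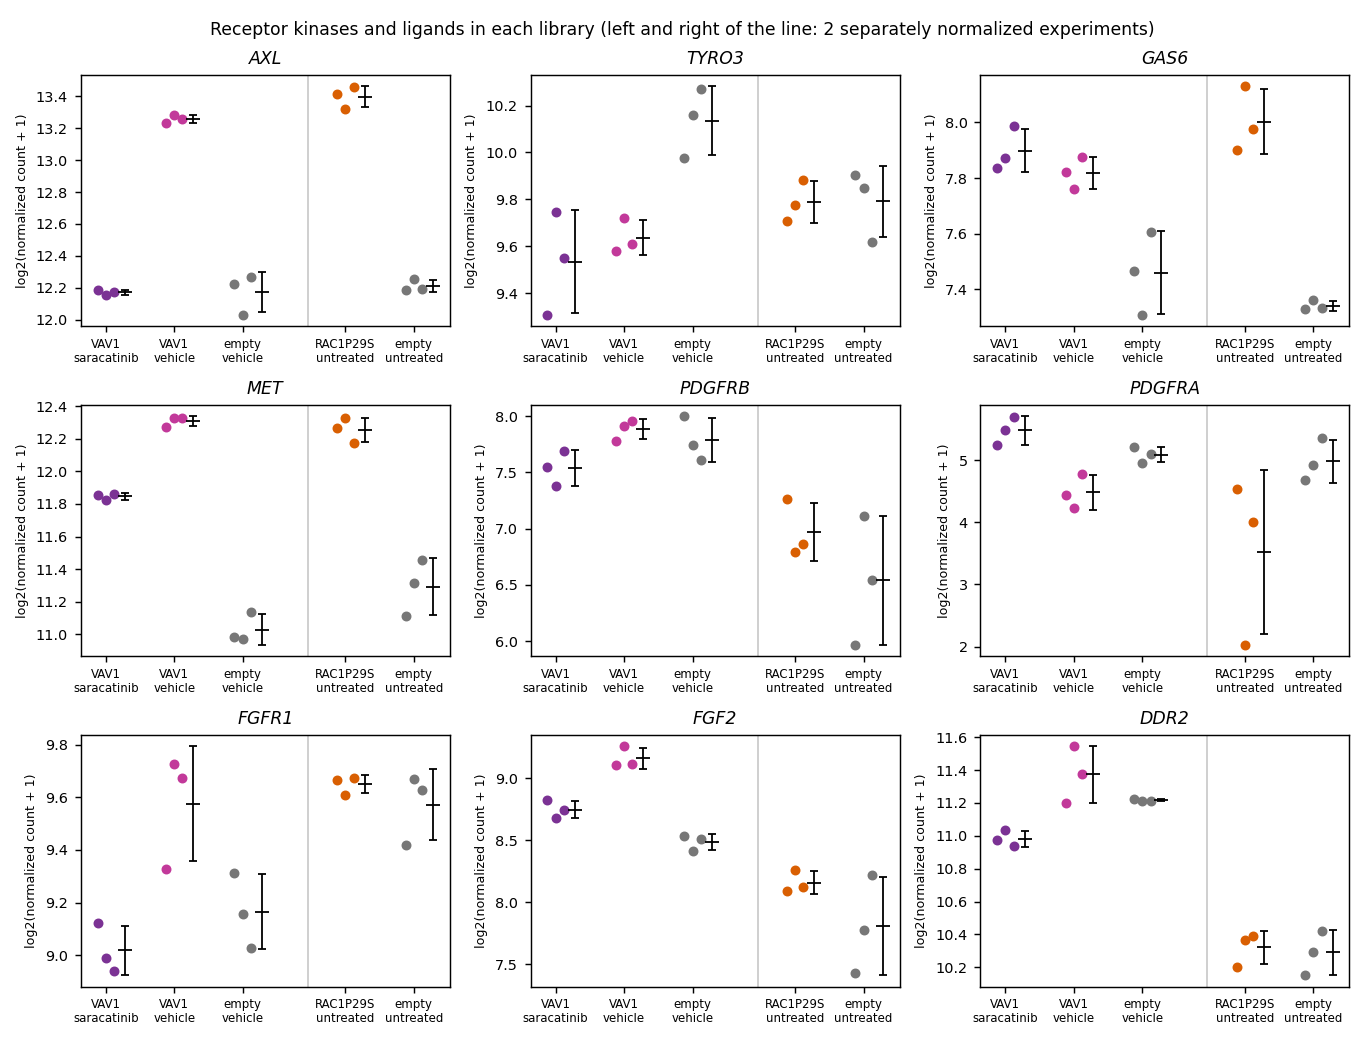
Log2 of the normalized count plus 1 (vertical axis) of 9 genes in each of the 15 libraries, by group, with the mean and SD of 3 libraries beside the points; the vertical line separates the experiments. AXL and MET in VAV1 vehicle cells and in RAC1P29S cells sit above their own empty-vector cells in every library, and AXL in VAV1 saracatinib cells sits among the empty-vector vehicle cells.

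In VAV1 vehicle cells, the receptors AXL and MET were 2.12-fold and 2.43-fold higher than in empty-vector vehicle cells, and FGF2, a secreted growth factor, was 1.59-fold higher. GAS6, the ligand of AXL, and FGFR1 rose by smaller amounts, and TYRO3, a close relative of AXL, fell. PDGFRA, PDGFRB and DDR2 did not pass the test. In all, 5 of the 9 genes were higher and 1 was lower by limma at an adjusted p under 0.05, against 23.6% and 20.1% of the 14410 genes tested (43.7% in either direction). For 7 of the 9 genes no VAV1 library overlapped the empty-vector ones, against 52.7% of genes tested. The median log2 fold change was 0.36 over the 9 genes and 0.02 over all genes.

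AXL (chr19:41219203-41261766, plus strand, in GENCODE release 29 on GRCh38) encodes one of the 3 TAM receptors, which are known for clearing dying cells and for resistance to kinase inhibitors. Its log2 values were 13.23, 13.28 and 13.26 in VAV1 vehicle cells and 12.22, 12.03 and 12.27 in empty-vector vehicle cells. Every VAV1 library lay about 1 log2 unit above every empty-vector library, and the VAV1 libraries were close together. The log2 fold change was 1.08 ± 0.05 (SE; 95% confidence interval 0.97 to 1.20; limma adjusted p = 2.69e-09). An antisense gene, AC011510.1, overlaps AXL exons, and the strand setting of the counting is not given in the sources used here. GAS6 (chr13:113820549-113864067, minus strand), the secreted protein that bridges TAM receptors to dying cells, had log2 values of 7.82, 7.76 and 7.88 in VAV1 vehicle cells and 7.47, 7.31 and 7.61 in empty-vector vehicle cells. The groups did not overlap, but the lowest VAV1 library was only a little above the highest empty-vector library. Its log2 fold change was 0.36 ± 0.11 (limma adjusted p = 0.0184), and the call was lost without empty-vector vehicle replicate 2 (adjusted p = 0.0693) or VAV1 vehicle replicate 3 (adjusted p = 0.0627). GAS6 shares exon sequence with the antisense gene GAS6-AS1, whose reads cannot be told apart if strand was not used.

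TYRO3 (chr15:41557675-41583586, plus strand), the TAM receptor best known from the nervous system, moved the other way from AXL. Its log2 values were 9.58, 9.72 and 9.61 in VAV1 vehicle cells and 9.98, 10.16 and 10.27 in empty-vector vehicle cells. All VAV1 libraries were below all empty-vector libraries, and the log2 fold change was -0.50 ± 0.10 (limma adjusted p = 0.0018). TYRO3 has a processed pseudogene, TYRO3P, so reads shared with it are uncertain.

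MET (chr7:116672390-116798386, plus strand) encodes the receptor of hepatocyte growth factor, known for motility and invasive growth. It had log2 values of 12.27, 12.33 and 12.33 in VAV1 vehicle cells and 10.98, 10.97 and 11.14 in empty-vector vehicle cells. This was the largest change of the 9 genes on the log2 scale, with a gap of over 1 unit between the nearest libraries of the groups. In normalized counts MET averaged 5076 ± 105 in VAV1 vehicle cells and 2089 ± 138 in empty-vector vehicle cells (SD, n = 3 each). The log2 fold change was 1.28 ± 0.05 (95% confidence interval 1.17 to 1.39; limma adjusted p = 2.11e-10).

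FGFR1 lies on chromosome 8 and encodes a receptor of fibroblast growth factors. Its log2 values were 9.33, 9.73 and 9.67 in VAV1 vehicle cells and 9.31, 9.16 and 9.03 in empty-vector vehicle cells. VAV1 vehicle replicate 1 stood nearly level with the highest empty-vector library, and the other 2 stood well above. FGFR1 rose by 0.41 ± 0.11 on the log2 scale (limma adjusted p = 0.0078). FGF2 (chr4:122826708-122898236, plus strand), a ligand of FGFR1, had log2 values of 9.10, 9.26 and 9.12 in VAV1 vehicle cells and 8.54, 8.41 and 8.51 in empty-vector vehicle cells. The groups were far apart relative to their spread, at a log2 fold change of 0.67 ± 0.08 (limma adjusted p = 2.02e-05). FGF2 exons overlap those of NUDT6, and FGFR1 exons overlap those of LETM2, both on the opposite strand, so their reads may be mixed if strand was not used.

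The PDGF receptors bind platelet-derived growth factors and mark mesenchymal cells. PDGFRA (chr4:54229097-54298247, plus strand) was at a low level, with log2 values of 4.43, 4.23 and 4.78 in VAV1 vehicle cells and 5.20, 4.96 and 5.09 in empty-vector vehicle cells. The groups did not overlap, but the log2 fold change of -0.60 ± 0.24 missed the threshold (limma adjusted p = 0.0603). It passed without VAV1 vehicle replicate 3 (log2 fold change -0.75, adjusted p = 0.0412) and without the variance trend and robust estimation (adjusted p = 0.0217). PDGFRB (chr5:150113837-150155872, minus strand) overlapped between the groups, with log2 values of 7.78, 7.91 and 7.96 in VAV1 vehicle cells and 7.9993, 7.75 and 7.61 in empty-vector vehicle cells. Its log2 fold change was 0.10 ± 0.13 (95% confidence interval -0.18 to 0.37; limma adjusted p = 0.570). An annotated gene on the same strand, AC058822.1, shares exons with PDGFRA. DDR2 (chr1:162631373-162787400, plus strand), a receptor for fibrillar collagen, had log2 values of 11.20, 11.54 and 11.37 in VAV1 vehicle cells and 11.22, 11.21 and 11.21 in empty-vector vehicle cells. VAV1 vehicle replicate 1 was level with the empty-vector libraries and the other 2 were higher. Its difference was 0.16 ± 0.07 on the log2 scale (limma adjusted p = 0.0886), and without that replicate it was 0.24 (adjusted p = 0.0071).

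SOX10 and MITF, whose low levels accompany AXL in dedifferentiated melanoma, were measured beside these genes. SOX10 had 1748, 1837 and 1776 normalized counts in VAV1 vehicle cells and 7726, 7381 and 7459 in empty-vector vehicle cells. MITF had 1065, 1110.4 and 1093 in VAV1 vehicle cells and 434, 314 and 364 in empty-vector vehicle cells. The 8 melanoma markers in these files summed to 7993 to 8396 in VAV1 vehicle cells and 13314 to 14427 in empty-vector vehicle cells. Their part in the receptor changes was not tested.

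**Figure D2:**
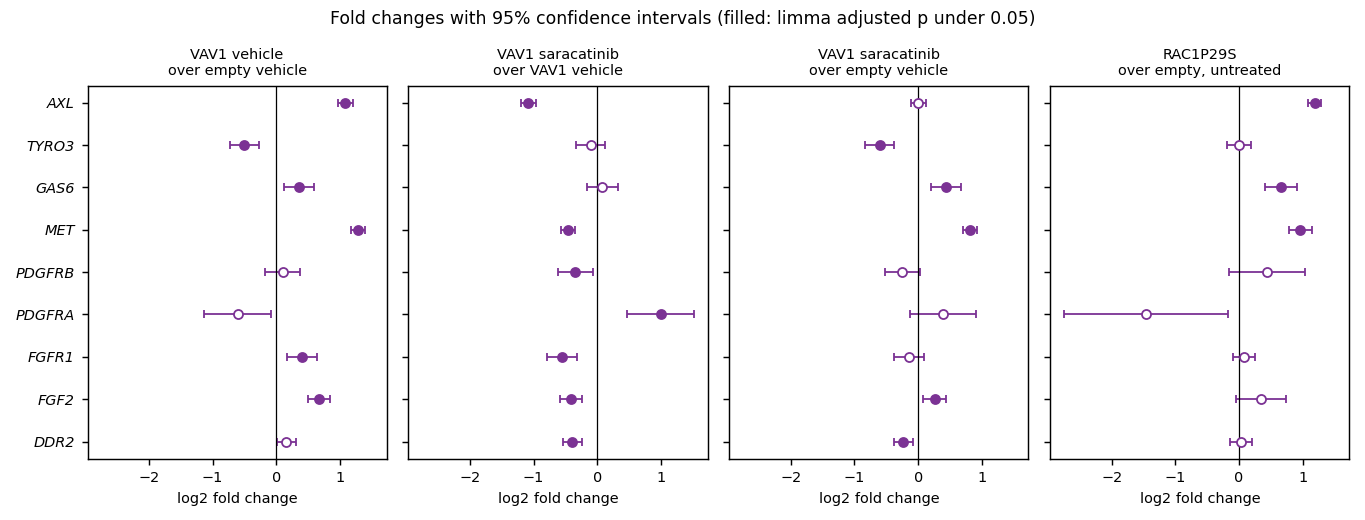
Log2 fold change (horizontal axis) of 9 genes in 4 comparisons, with 95% confidence intervals from limma; filled points have an adjusted p under 0.05. AXL is near 1.08, -1.08, 0.00 and 1.19 from the left panel to the right, and MET is near 1.28, -0.46, 0.82 and 0.96.

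In VAV1 cells given saracatinib, 6 of the 9 genes were lower than in VAV1 cells given vehicle. AXL fell 2.12-fold, FGFR1 1.47-fold, MET 1.38-fold, FGF2 1.33-fold and DDR2 1.31-fold, and PDGFRB fell 1.27-fold close to the threshold. PDGFRA was the 1 gene that was higher, 1.99-fold, and TYRO3 and GAS6 did not pass. The background was 19.1% of 14410 genes lower and 18.3% higher (37.3% in either direction), and 7 of the 9 genes had libraries that did not overlap, against 49.4% of all genes. The median log2 fold change of the 9 genes was -0.39, against -0.01 over all genes. This comparison and the one of VAV1 with the empty vector share the VAV1 vehicle libraries.

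AXL had log2 values of 12.19, 12.16 and 12.17 in VAV1 saracatinib cells, against 13.23 to 13.28 in VAV1 vehicle cells. The saracatinib libraries were within 0.1 of each other and about 1 unit below the vehicle libraries. The log2 fold change was -1.08 ± 0.05 (95% confidence interval -1.20 to -0.97; limma adjusted p = 5.98e-09). MET stood at 11.85, 11.82 and 11.86 in VAV1 saracatinib cells, against 12.27 to 12.33 in VAV1 vehicle cells. It fell in every library, by less than AXL, with a log2 fold change of -0.46 ± 0.05 (95% confidence interval -0.57 to -0.35; limma adjusted p = 9.26e-06).

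FGFR1 had log2 values of 9.12, 8.99 and 8.94 in VAV1 saracatinib cells, against 9.33 to 9.73 in VAV1 vehicle cells. All were lower, with a log2 fold change of -0.56 ± 0.11 (limma adjusted p = 0.0013). Its ligand FGF2 stood at 8.82, 8.68 and 8.74 in VAV1 saracatinib cells, against 9.10 to 9.26 in VAV1 vehicle cells, a log2 fold change of -0.41 ± 0.08 (limma adjusted p = 0.0014). DDR2 stood at 10.98, 11.03 and 10.94 in VAV1 saracatinib cells, against 11.20 to 11.54 in VAV1 vehicle cells. It was lower in every library, by a log2 fold change of -0.39 ± 0.07 (limma adjusted p = 7.09e-04).

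The 2 PDGF receptors moved in opposite directions. PDGFRA stood at 5.24, 5.49 and 5.70 in VAV1 saracatinib cells, against 4.23 to 4.78 in VAV1 vehicle cells, a log2 fold change of 0.99 ± 0.24 (limma adjusted p = 0.0057). In normalized counts this was 43.9 ± 7.06 in VAV1 saracatinib cells and 21.6 ± 4.46 in VAV1 vehicle cells (SD, n = 3 each), so the change is of a low level. The call was lost when all 15 libraries shared 1 fit (adjusted p = 0.0913). PDGFRB stood at 7.55, 7.38 and 7.69 in VAV1 saracatinib cells, against 7.78 to 7.96 in VAV1 vehicle cells. The groups did not overlap, and the log2 fold change was -0.35 ± 0.13 (limma adjusted p = 0.0486). That call was lost without any single VAV1 vehicle replicate, without VAV1 saracatinib replicate 1 or 2 and without empty-vector vehicle replicate 2, with adjusted p of 0.0354 to 0.170 over the 9 libraries left out in turn. With the replicate number as a block, the adjusted p was 0.0709.

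GAS6 had log2 values of 7.84, 7.87 and 7.99 in VAV1 saracatinib cells, against 7.76 to 7.88 in VAV1 vehicle cells, and the groups overlapped. The fold change was 0.08 ± 0.11 on the log2 scale (95% confidence interval -0.16 to 0.32; limma adjusted p = 0.606). TYRO3 stood at 9.31, 9.75 and 9.55 in VAV1 saracatinib cells, against 9.58 to 9.72 in VAV1 vehicle cells. Saracatinib replicate 1 was below all VAV1 vehicle libraries and replicate 2 above them. The difference was -0.10 ± 0.10 on the log2 scale (95% confidence interval -0.33 to 0.13; limma adjusted p = 0.485). SOX10 had 2718 to 2798 normalized counts in VAV1 saracatinib cells and 1748 to 1837 in VAV1 vehicle cells, and MITF had 456 to 568 in VAV1 saracatinib cells and 1065 to 1110.4 in VAV1 vehicle cells. SOX10 was thus higher and MITF lower with saracatinib. The summed melanoma markers, again mostly SOX10 and MCAM, were 9010 to 9197 in VAV1 saracatinib cells and 7993 to 8396 in VAV1 vehicle cells. Their part in the receptor changes was not tested.

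Set against empty-vector vehicle cells, VAV1 cells given saracatinib held AXL at the level of the empty vector and MET above it. MET was 1.76-fold, GAS6 1.36-fold and FGF2 1.20-fold higher, while TYRO3 was 1.52-fold and DDR2 1.18-fold lower. In all, 3 of the 9 genes were higher and 2 lower, against 22.4% and 21.0% of the 14410 genes tested (43.4% in either direction). The libraries did not overlap for 6 of 9 genes, against 52.8% of all genes. With no empty-vector cells given saracatinib, the effect of the drug without VAV1 cannot be told apart from its effect on VAV1 cells.

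The AXL difference from empty-vector vehicle cells was -0.00 ± 0.05 on the log2 scale (95% confidence interval -0.12 to 0.12; limma adjusted p = 0.990). The VAV1 saracatinib libraries, at 12.16 to 12.19, lay inside the range of the empty-vector vehicle libraries, at 12.03 to 12.27. For MET, the VAV1 saracatinib libraries, at 11.82 to 11.86, lay between the other groups and overlapped neither, with a log2 difference of 0.82 ± 0.05 from empty-vector vehicle cells (limma adjusted p = 3.16e-08). The order of MET levels was therefore VAV1 vehicle, VAV1 saracatinib and then empty-vector vehicle cells, each apart from the next by more than the spread. FGF2 had the same order, with VAV1 saracatinib cells 0.26 ± 0.08 above empty-vector vehicle cells (limma adjusted p = 0.0206). That FGF2 call was lost without empty-vector vehicle replicate 2 (adjusted p = 0.0664), without VAV1 saracatinib replicate 1 (adjusted p = 0.0773) and with all 15 libraries in 1 fit (adjusted p = 0.138).

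GAS6 differed by 0.44 ± 0.11 (limma adjusted p = 0.0060) and TYRO3 by -0.60 ± 0.10 (limma adjusted p = 4.89e-04) on the log2 scale between VAV1 saracatinib and empty-vector vehicle cells. Both thus stood apart from the empty vector in VAV1 cells with either treatment, and between the treatments neither passed. DDR2 differed by -0.23 ± 0.07 (limma adjusted p = 0.0164) and lost the call without VAV1 saracatinib replicate 3 (adjusted p = 0.0575) or without the variance trend and robust estimation (adjusted p = 0.0638). PDGFRA (0.39 ± 0.24), PDGFRB (-0.25 ± 0.13) and FGFR1 (-0.15 ± 0.11) did not pass, with limma adjusted p of 0.215, 0.138 and 0.302 for each in turn.

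In RAC1P29S cells, AXL was 2.27-fold, MET 1.95-fold and GAS6 1.58-fold higher than in untreated empty-vector cells, and none of the 9 genes was lower by the test. Of the 14036 genes tested, 15.6% were higher and 15.5% lower (31.1% in either direction). At an unadjusted p under 0.05 there were 5779 genes. The libraries did not overlap for 4 of 9 genes (AXL, GAS6, MET and PDGFRA), against 45.0% of all genes. The median log2 fold change was 0.35 over the 9 genes and -0.00 over all genes.

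AXL had log2 values of 13.41, 13.32 and 13.45 in RAC1P29S cells and 12.18, 12.26 and 12.19 in untreated empty-vector cells. The groups were more than 1 unit apart, with a log2 fold change of 1.19 ± 0.05 (95% confidence interval 1.08 to 1.29; limma adjusted p = 3.80e-08). MET stood at 12.27, 12.33 and 12.17 in RAC1P29S cells and 11.11, 11.31 and 11.45 in untreated empty-vector cells, a log2 fold change of 0.96 ± 0.08 (95% confidence interval 0.78 to 1.14; limma adjusted p = 1.12e-05). All RAC1P29S libraries were above all empty-vector libraries, which were more spread for MET than for AXL. GAS6 stood at 7.90, 8.13 and 7.98 in RAC1P29S cells and 7.33, 7.36 and 7.33 in untreated empty-vector cells, a log2 fold change of 0.66 ± 0.11 (limma adjusted p = 0.0013). TYRO3 overlapped, at 9.71, 9.78 and 9.88 in RAC1P29S cells and 9.91, 9.85 and 9.62 in untreated empty-vector cells. Its log2 fold change was -0.00 ± 0.09 (95% confidence interval -0.20 to 0.19; limma adjusted p = 0.987).

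PDGFRA, PDGFRB and FGF2 did not pass, and for each the call depended on single libraries. PDGFRA stood at 4.53, 2.03 and 4.005 in RAC1P29S cells and 4.68, 4.91 and 5.36 in untreated empty-vector cells. RAC1P29S replicate 2, at a normalized count of 3.07, was far below the other 2, and the log2 fold change of -1.46 ± 0.58 did not pass (limma adjusted p = 0.0833). It was -0.71 without that library and -1.97 without RAC1P29S replicate 1, where it passed (adjusted p = 0.0304); it also passed with a pseudocount of 16 (-0.73, adjusted p = 0.0486) and with all 15 libraries in 1 fit (adjusted p = 0.0179). PDGFRB stood at 7.27, 6.79 and 6.86 in RAC1P29S cells and 5.97, 7.11 and 6.54 in untreated empty-vector cells, with overlap. Its log2 fold change of 0.43 ± 0.27 did not pass (limma adjusted p = 0.256), and without empty-vector untreated replicate 2 it was 0.72 (adjusted p = 0.0453). FGF2 stood at 8.09, 8.26 and 8.13 in RAC1P29S cells and 7.43, 7.77 and 8.22 in untreated empty-vector cells, where replicate 3 alone reached the RAC1P29S level. The change was 0.35 ± 0.18 on the log2 scale (limma adjusted p = 0.163), and without that replicate it was 0.56 (adjusted p = 0.0156).

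FGFR1 and DDR2 overlapped between RAC1P29S and untreated empty-vector cells. FGFR1 stood at 9.67, 9.61 and 9.67 in RAC1P29S cells and 9.42, 9.67 and 9.63 in untreated empty-vector cells, a log2 fold change of 0.08 ± 0.08 (95% confidence interval -0.10 to 0.25; limma adjusted p = 0.498). DDR2 stood at 10.21, 10.37 and 10.39 in RAC1P29S cells and 10.15, 10.30 and 10.42 in untreated empty-vector cells, a log2 fold change of 0.03 ± 0.08 (95% confidence interval -0.15 to 0.21; limma adjusted p = 0.810). SOX10 had 4235 to 4620.3 normalized counts in RAC1P29S cells and 8878 to 9824 in untreated empty-vector cells, and MITF had 663 to 887 in RAC1P29S cells and 308 to 356 in untreated empty-vector cells. Here too SOX10 was lower and MITF higher. The 10 melanoma markers, all in these files and mostly SOX10 and MCAM by count, summed to 10114 to 10738 in RAC1P29S cells and 14336 to 15375 in untreated empty-vector cells. Their part in the receptor changes was not tested.

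The VAV1 and RAC1P29S effects, each taken against its own empty-vector cells, use separate libraries, and their difference was tested directly. MET differed by 0.32 ± 0.10 on the log2 scale (95% confidence interval 0.11 to 0.52; limma adjusted p = 0.0343), with the larger rise in VAV1 cells. TYRO3 differed by -0.50 ± 0.15 (95% confidence interval -0.81 to -0.19; limma adjusted p = 0.0293), with the fall in VAV1 cells. These are 1 of 9 genes in each direction, against 8.14% and 7.70% of the 13810 genes tested (15.8% in either direction). For AXL the difference was -0.10 ± 0.07 (95% confidence interval -0.26 to 0.05; limma adjusted p = 0.389). The AXL interval leaves room for an effect of VAV1 that is 0.26 lower or 0.05 higher than that of RAC1P29S on the log2 scale.

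The other 6 genes did not pass in the test of the difference, with log2 differences of -0.30 ± 0.15 for GAS6 (limma adjusted p = 0.179), 0.33 ± 0.14 for FGFR1 (0.133) and 0.32 ± 0.19 for FGF2 (0.290). PDGFRB (-0.33 ± 0.30), PDGFRA (0.86 ± 0.63) and DDR2 (0.13 ± 0.11) also did not pass, with limma adjusted p of 0.505, 0.400 and 0.492 for each in turn. The FGFR1 and FGF2 effects thus passed with VAV1 and not with RAC1P29S, but were not shown to differ. Leaving out 1 library at a time changed these calls often. The MET call was lost without empty-vector vehicle replicate 1 or 2, VAV1 vehicle replicate 2 or 3, empty-vector untreated replicate 2 or 3, or RAC1P29S replicate 1 or 3, with differences of 0.24 to 0.32 there. The TYRO3 call was lost without empty-vector vehicle replicate 2 or 3, VAV1 vehicle replicate 1 or 3, empty-vector untreated replicate 3 or RAC1P29S replicate 3, with differences of -0.49 to -0.41. FGFR1 passed without VAV1 vehicle replicate 1 (0.46, adjusted p = 0.0265), and FGF2 passed without empty-vector untreated replicate 1 (0.51, adjusted p = 0.0398).

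**Figure D3:**
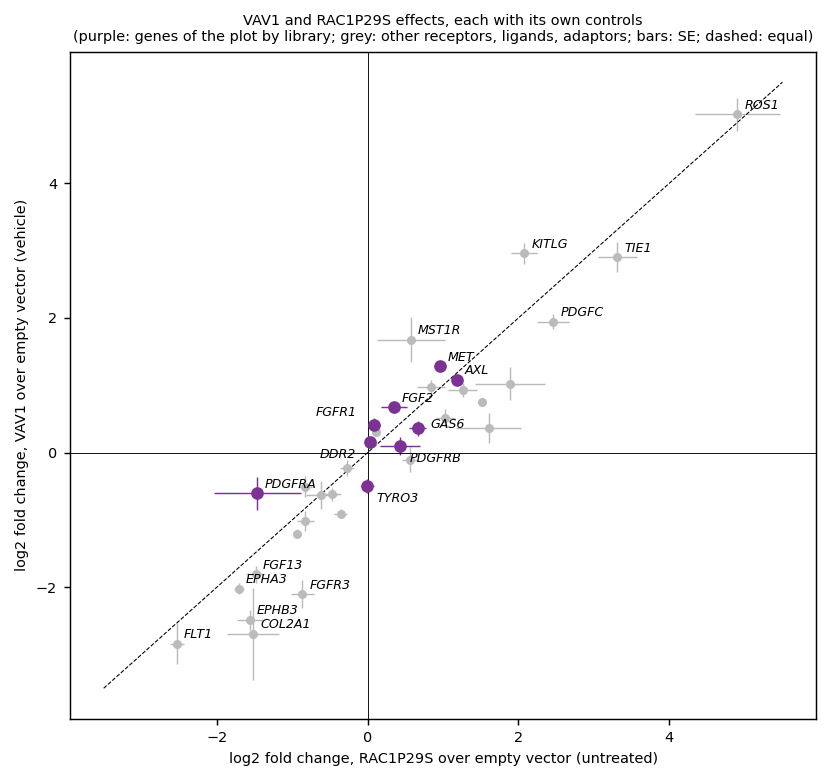
Log2 fold change of VAV1 over the empty vector with vehicle (vertical axis) against that of RAC1P29S over the empty vector, untreated (horizontal axis), for 9 genes (purple) and other named receptors, ligands and adaptors (grey), with SE bars; the dashed line marks equal effects. MET lies above the line and TYRO3 below it, and AXL lies near it at 1.08 for VAV1 and 1.19 for RAC1P29S.

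The wider receptor network was described with 8 lists that hold 99 further genes, of which 77 were tested in the vehicle and saracatinib experiment and 68 in the untreated one. In VAV1 vehicle cells 19 of 77 were higher and 26 lower than in empty-vector vehicle cells, beside 23.6% and 20.1% of all genes, with a median log2 fold change of -0.11 against 0.02 for all genes. Under saracatinib 16 of 77 were higher and 16 lower than in VAV1 vehicle cells, beside 18.3% and 19.1% of all genes. In VAV1 saracatinib cells 16 of 77 were higher and 20 lower than in empty-vector vehicle cells, beside 22.4% and 21.0% of all genes. In RAC1P29S cells 19 of 68 were higher and 23 lower than in untreated empty-vector cells, beside 15.6% and 15.5% of all genes, with a median of -0.13 against -0.00 for all genes. In the test of the difference between the effects, 5 of 67 were higher and 9 lower, beside 8.14% and 7.70% of all genes. The counts under saracatinib thus lie near those shares. The count of 5 was unstable: leaving out 1 library at a time gave 1 to 4, with 1 without VAV1 vehicle replicate 3 or RAC1P29S replicate 1.

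Some ligands of these receptor families were among the clearest rises, while others fell. MST1, the ligand of MST1R, had log2 values of 5.80, 5.55 and 5.40 in VAV1 vehicle cells and 6.12, 6.32 and 6.22 in empty-vector vehicle cells. It stood at 5.82, 5.97 and 5.68 in RAC1P29S cells and 6.21, 6.85 and 6.26 in untreated empty-vector cells. Both MST1 falls passed and lost the call when single libraries were left out. The ligands EFNB2 and EFNB3 were also lower in both comparisons. KITLG, the ligand of KIT, had log2 values of 8.49, 8.68 and 8.43 in VAV1 vehicle cells and 5.72, 5.24 and 5.75 in empty-vector vehicle cells, a log2 fold change of 2.96 ± 0.16 (limma adjusted p = 6.18e-09). In VAV1 saracatinib cells it stood at 7.64, 7.60 and 7.94, between the other groups, with a log2 fold change of -0.80 ± 0.16 from VAV1 vehicle cells (limma adjusted p = 0.0014). In RAC1P29S cells it stood at 7.94, 7.87 and 7.90 and in untreated empty-vector cells at 5.46, 6.04 and 5.99, a log2 fold change of 2.08 ± 0.17 (limma adjusted p = 9.56e-06). PDGFC, a ligand of PDGFRA, was 3.85-fold higher in VAV1 vehicle cells than in empty-vector vehicle cells and 5.51-fold higher in RAC1P29S cells than in untreated empty-vector cells. PDGFB, a ligand of both PDGF receptors, was 2.03-fold and 3.71-fold higher in the same comparisons, at lower levels. In the untreated experiment PDGFB met the minimum count for testing only through RAC1P29S cells. It stood at 14.8 normalized counts or more in RAC1P29S cells and at most 6.99 in untreated empty-vector cells. Under saracatinib PDGFC changed by -0.40 ± 0.11 (limma adjusted p = 0.0143) and PDGFB by -0.81 ± 0.24 (limma adjusted p = 0.0195) on the log2 scale relative to VAV1 vehicle cells. The PDGFC call was lost without VAV1 vehicle replicate 3 (adjusted p = 0.0543) or VAV1 saracatinib replicate 3 (adjusted p = 0.0577), and the PDGFB call without VAV1 vehicle replicate 1 (adjusted p = 0.0807) or VAV1 saracatinib replicate 1 (adjusted p = 0.0618).

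Other ligands rose again under saracatinib. PROS1, the second ligand of TAM receptors, had log2 values of 9.80, 9.60 and 9.97 in VAV1 saracatinib cells, 8.64, 8.50 and 8.67 in VAV1 vehicle cells and 7.65, 7.52 and 7.69 in empty-vector vehicle cells. No 2 of these groups overlapped, and PROS1 was higher with saracatinib by 1.19 ± 0.10 on the log2 scale than in VAV1 vehicle cells (limma adjusted p = 1.08e-06). In that comparison AXL fell and TYRO3 did not pass. Without saracatinib the log2 fold change of PROS1 was 0.98 ± 0.10 in VAV1 vehicle cells over empty-vector vehicle cells (limma adjusted p = 4.39e-06) and 0.84 ± 0.19 in RAC1P29S cells over untreated empty-vector cells (limma adjusted p = 0.0075). CSF1, the ligand of the CSF1 receptor, stood at 9.37, 9.16 and 9.26 in VAV1 saracatinib cells, 8.75, 8.99 and 8.74 in VAV1 vehicle cells and 7.94, 7.99 and 7.76 in empty-vector vehicle cells. It was higher with saracatinib by 0.44 ± 0.10 than in VAV1 vehicle cells (limma adjusted p = 0.0038) and in RAC1P29S cells by 1.26 ± 0.19 than in untreated empty-vector cells (limma adjusted p = 7.23e-04). In the MET family list, the receptor MST1R (RON) and the protease inhibitor SPINT2 were higher in VAV1 vehicle cells than in empty-vector vehicle cells, by log2 fold changes of 1.68 ± 0.33 (limma adjusted p = 0.0011) and 3.27 ± 0.60 (limma adjusted p = 6.94e-04). SPINT2 is a low-level gene, at 34.9, 19.8 and 40.0 normalized counts in VAV1 vehicle cells and 0.761, 1.82 and 5.89 in empty-vector vehicle cells. It met the minimum count for testing only through VAV1 cells.

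Several FGF receptors were lower where FGFR1 was higher or did not pass. FGFR3 fell by 2.10 ± 0.21, FGFRL1, a receptor without a kinase domain, by 1.20 ± 0.06, and FGFR4 by 1.01 ± 0.15 on the log2 scale in VAV1 vehicle cells relative to empty-vector vehicle cells. In RAC1P29S cells relative to untreated empty-vector cells the same receptors fell by 0.86 ± 0.15, 0.93 ± 0.06 and 0.82 ± 0.11. FGF13, an intracellular member of the FGF family, stood at 6.84, 7.19 and 7.11 in VAV1 vehicle cells and 8.92, 8.83 and 8.81 in empty-vector vehicle cells, a log2 fold change of -1.81 ± 0.12. With RAC1P29S its log2 fold change was -1.49 ± 0.12. The largest limma adjusted p among these 8 falls, of 4 genes in 2 comparisons, was 0.0014. Under saracatinib FGFRL1 passed as higher, at log2 values of 10.66, 10.78 and 10.80 against 10.37, 10.49 and 10.43 in VAV1 vehicle cells. Neither FGF13 nor FGFR3 or FGFR4 passed there. Of the 12 tested genes of the FGF list, with FGFR1 and FGF2 among them, 4 were higher and 4 lower in VAV1 vehicle cells. The shares over all genes were 23.6% higher and 20.1% lower.

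Collagen receptors and collagens followed a different order. DDR1, the relative of DDR2 found mostly in epithelia, had log2 values of 10.27, 10.42 and 10.17 in VAV1 saracatinib cells, 9.77, 9.79 and 9.74 in VAV1 vehicle cells and 10.62, 10.74 and 10.66 in empty-vector vehicle cells. Its log2 difference was -0.91 ± 0.07 in VAV1 vehicle over empty-vector vehicle cells (limma adjusted p = 1.67e-07) and 0.52 ± 0.07 in VAV1 saracatinib over VAV1 vehicle cells (limma adjusted p = 5.14e-05), whereas DDR2 was lower under saracatinib. Of the fibrillar collagens, which are ligands of these receptors, COL1A1 fell by 1.69 ± 0.22 (limma adjusted p = 5.77e-05) and COL5A1 by 1.38 ± 0.18 (limma adjusted p = 7.24e-05) on the log2 scale in VAV1 saracatinib cells relative to VAV1 vehicle cells. Neither passed in VAV1 vehicle cells over empty-vector vehicle cells, at log2 fold changes of 0.36 ± 0.22 for COL1A1 (adjusted p = 0.216) and -0.11 ± 0.18 for COL5A1 (adjusted p = 0.678). All 5 tested genes of this list, DDR2 included, were lower in VAV1 saracatinib cells than in empty-vector vehicle cells, beside 21.0% of all genes. Leaving out 1 library at a time gave 4 to 5 lower. One of them, the low-level COL2A1, met the minimum count for testing through empty-vector vehicle cells. It averaged 29.7 normalized counts there and 6.03 in VAV1 saracatinib cells. The COL2A1 call was lost without empty-vector vehicle replicate 1 (limma adjusted p = 0.0512). COL1A1 and COL5A1 were both higher in RAC1P29S cells than in untreated empty-vector cells. The log2 fold changes were 1.61 ± 0.43 for COL1A1 (limma adjusted p = 0.0167) and 0.56 ± 0.11 for COL5A1 (limma adjusted p = 0.0031). The COL1A1 call was lost without untreated empty-vector replicate 3 (adjusted p = 0.0531) or RAC1P29S replicate 2 (adjusted p = 0.0608), and without the variance trend and robust estimation (adjusted p = 0.0531). DDR1 was lower there too, by a log2 fold change of -0.36 ± 0.09 (limma adjusted p = 0.0105), and lost the call without the variance trend and robust estimation (adjusted p = 0.0586).

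Ephrin receptors read ephrins, ligands bound to neighbouring cells. Of 17 tested receptors and ephrins together, 3 were higher (the receptors EPHA2 and EPHB2 and the ligand EFNB1) and 8 lower (6 receptors and the ligands EFNB2 and EFNB3) in VAV1 vehicle cells than in empty-vector vehicle cells. Over all genes, 23.6% were higher and 20.1% lower. EPHA2, an ephrin receptor with a known role in melanoma resistance, stood at 13.11, 13.14 and 13.14 in VAV1 vehicle cells and 12.46, 12.30 and 12.36 in empty-vector vehicle cells. Its log2 fold change was 0.76 ± 0.05 there (limma adjusted p = 1.60e-08) and -0.62 ± 0.05 under saracatinib relative to VAV1 vehicle cells (limma adjusted p = 2.32e-07). In RAC1P29S cells EPHA2 stood at 13.15, 13.15 and 13.18 and in untreated empty-vector cells at 11.64, 11.73 and 11.58, a log2 fold change of 1.51 ± 0.05 (limma adjusted p = 8.76e-09). The log2 fold change of EPHA3 was -2.02 ± 0.08 in VAV1 vehicle cells and -1.71 ± 0.07 in RAC1P29S cells, and that of EPHB3 was -2.48 ± 0.15 in VAV1 vehicle cells and -1.56 ± 0.18 in RAC1P29S cells, each against its own empty-vector cells. The largest limma adjusted p of these 4 was 8.40e-05.

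Among other receptor kinases, ROS1, a receptor known from gene fusions in cancer, had the largest rise with VAV1 of the listed genes named. Its normalized counts were 60.8, 58.6 and 53.3 in VAV1 saracatinib cells, 185, 188 and 192 in VAV1 vehicle cells and 4.14, 7.46 and 3.54 in empty-vector vehicle cells. ROS1 thus met the minimum count for testing only through VAV1 cells. The log2 fold change was 5.02 ± 0.25 for VAV1 vehicle over empty-vector vehicle cells (limma adjusted p = 2.28e-09) and -1.69 ± 0.25 for VAV1 saracatinib over VAV1 vehicle cells (limma adjusted p = 1.30e-04). In RAC1P29S cells ROS1 stood at 53.2, 37.2 and 45.4 normalized counts, while untreated empty-vector replicates 1 and 2 were listed at 0 and replicate 3 at 2.60, so no fold is given. TIE1, a receptor known from endothelial cells, was 7.47-fold higher in VAV1 vehicle cells than in empty-vector vehicle cells and 9.93-fold higher in RAC1P29S cells than in untreated empty-vector cells, while FLT1, also known from endothelial cells, was 7.15-fold and 5.78-fold lower. The endothelial markers PECAM1, CDH5, VWF and EMCN summed to 21.8 to 52.3 normalized counts in VAV1 vehicle cells and 28.3 to 37.8 in empty-vector vehicle cells. They summed to 20.7 to 30.1 in RAC1P29S cells and 23.1 to 26.4 in untreated empty-vector cells.

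Adaptors and regulators act below the receptors. Of 21 tested, 4 were higher and 7 lower in VAV1 vehicle cells than in empty-vector vehicle cells, beside 23.6% and 20.1% of all genes. SHC2, an adaptor of the SHC family at a low level (at most 4.17 normalized counts in VAV1 vehicle cells and 42.5 in empty-vector vehicle cells), had a log2 fold change of -2.79 ± 0.44 in VAV1 vehicle over empty-vector vehicle cells (limma adjusted p = 1.84e-04) and of 2.47 ± 0.44 in VAV1 saracatinib over VAV1 vehicle cells (limma adjusted p = 6.34e-04). SHC2 met the minimum count for testing only through empty-vector vehicle and VAV1 saracatinib cells, and both changes rest on the same VAV1 vehicle libraries. PTPN11 (SHP2), the phosphatase that carries receptor signals to RAS, had a log2 fold change of 0.30 ± 0.05 in VAV1 vehicle over empty-vector vehicle cells (limma adjusted p = 1.96e-04) and of -0.29 ± 0.05 in VAV1 saracatinib over VAV1 vehicle cells (limma adjusted p = 3.00e-04). GAB2, a docking protein, was 1.43-fold higher in VAV1 vehicle cells than in empty-vector vehicle cells (limma adjusted p = 0.0075) and 2.04-fold higher in RAC1P29S cells than in untreated empty-vector cells (limma adjusted p = 1.32e-04). GRB10, an adaptor that dampens insulin receptor signalling, fell by 0.81 ± 0.16 in VAV1 saracatinib cells relative to VAV1 vehicle cells (limma adjusted p = 0.0014) and by 0.83 ± 0.09 in RAC1P29S cells relative to untreated empty-vector cells (limma adjusted p = 8.48e-05). It also passed as lower in VAV1 vehicle cells, at log2 values of 7.96, 7.99 and 8.23 against 8.47, 8.72 and 8.51 in empty-vector vehicle cells. That call was lost when single libraries were left out, with limma adjusted p up to 0.0756.

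**Figure D4:**
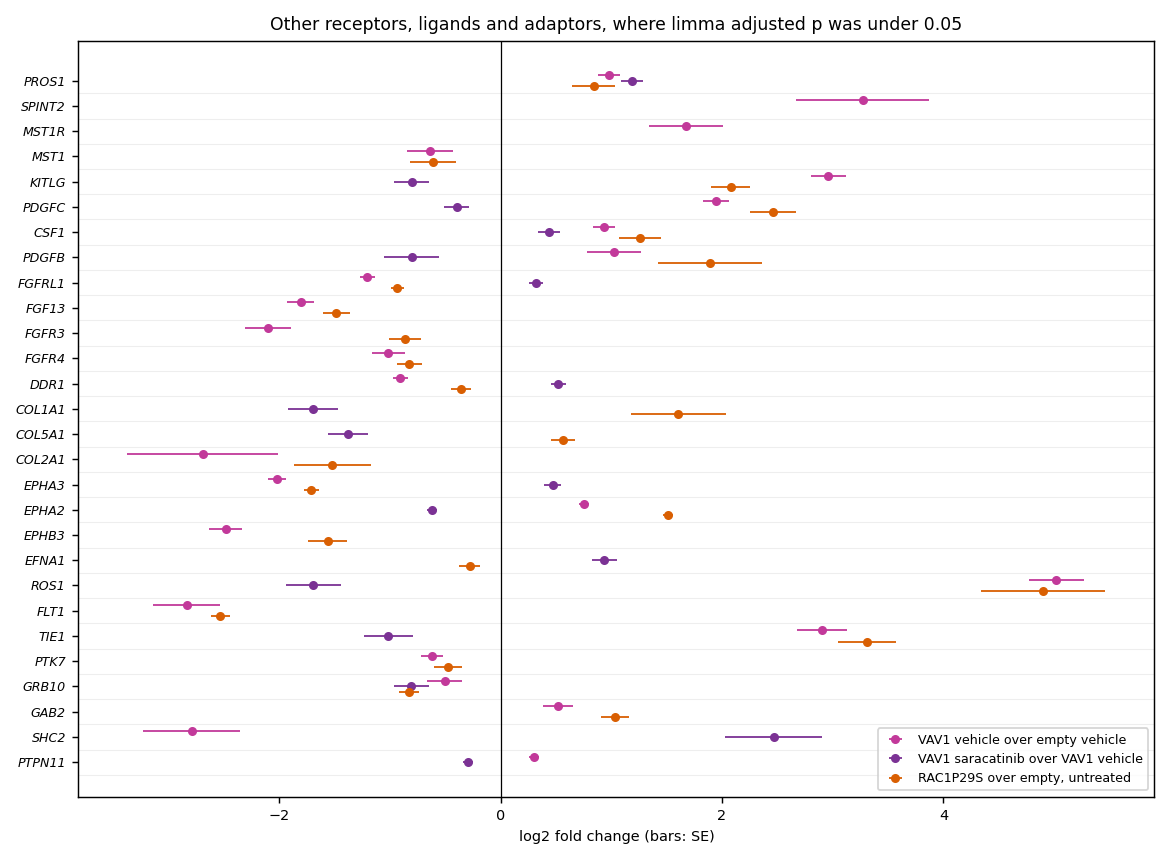
Log2 fold changes (horizontal axis, with SE bars) of the named receptors, ligands and adaptors outside the 9 genes, in the comparisons where limma adjusted p was under 0.05. KITLG, PDGFC and TIE1 are raised by VAV1 and RAC1P29S and lowered by saracatinib, while PROS1 and CSF1 are raised in all 3 comparisons.

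Over the 15 libraries, the genes with levels closest to those of AXL were CRIM1, PDLIM1, SMURF2 and TXNRD2. Likeness was the root mean square difference of log2 values after each gene was centred on its mean within each experiment. It was ranked over 13398 other genes tested in both, with clone names and unnamed loci left out. It was 0.07 for CRIM1 (Pearson r = 0.99), 0.10 for PDLIM1 and SMURF2 and 0.10 for TXNRD2. CRIM1 had log2 fold changes of 1.09 for VAV1, -1.13 for saracatinib and 1.27 for RAC1P29S, beside 1.08, -1.08 and 1.19 for AXL. Closest to MET were FABP5 (0.11), IER5 (0.12), ABL2 (0.13) and DSEL (0.13), and FABP5 had log2 fold changes of 1.24, -0.58 and 0.83, beside 1.28, -0.46 and 0.96 for MET. MET ranked 131 among the genes closest to AXL, at a difference of 0.29 (r = 0.85). FGF2 ranked 481, GAS6 906 and TYRO3 8695 in closeness to AXL. These libraries share their groups, so the values describe the pattern and no p is given. The closest genes were picked on these same libraries, so the likeness of their fold changes follows from the choice.

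**Figure D5:**
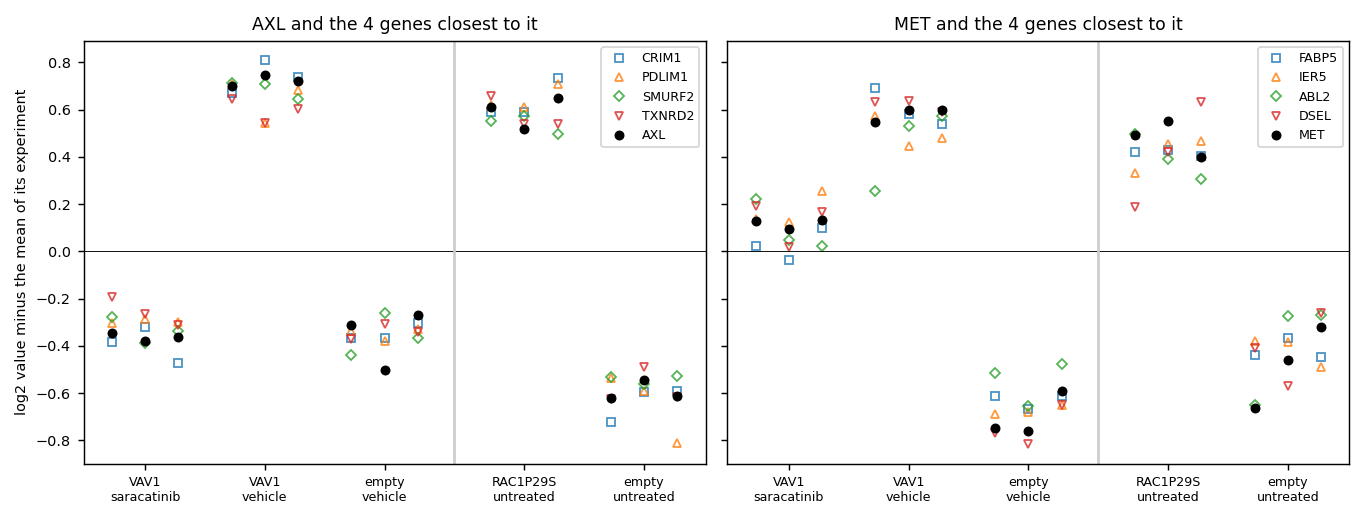
Log2 value of each library minus the mean of its experiment (vertical axis), by group, for AXL and the 4 genes closest to it (left) and MET and the 4 genes closest to it (right). For AXL and its 4 genes VAV1 saracatinib cells sit beside empty-vector vehicle cells, and for MET and its 4 genes they sit between VAV1 vehicle and empty-vector vehicle cells.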

How the data were processed

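Total RNA of 15 libraries was prepared with Illumina TruSeq, per the labels' protocols. The authors deposited 1 log2 value per gene symbol and library, which the values show to be log2 of a normalized count plus 1; kallisto, DESeq2 and the GRCh38 build are named in the submitters' processing notes, without versions. The 9 vehicle and saracatinib libraries list 16768 symbols and the 6 untreated libraries 16295. Whole reads could not be recovered: at best 47.2% to 53.6% of low values lay within 0.1 of a whole multiple of 1 step, and depth in reads is unknown, so no count test was run.

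Samples were grouped by title. Where 3 or more libraries reached a normalized count of 10, a gene was tested by limma 3.58.1 (R 4.3.3), two-sided, with 1 mean per group and with trended, robust variances. Adjusted p-values are Benjamini-Hochberg values over every gene tested. One fit took the 9 vehicle and saracatinib libraries, another the 6 untreated ones, and the test between effects all 15. Fold changes carry their SE and levels their SD after the ± sign. Folds are on the scale of a count plus 1 and understate changes of low genes.

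The genes, the 8 lists of further genes and the markers were chosen with earlier results of these data known. All members are described, and from each list up to 4 other genes with the smallest adjusted p under 0.05 in the VAV1, saracatinib or RAC1P29S comparison could be named, as could the 4 genes closest to AXL and to MET. Coordinates come from GENCODE release 29 and promoters from RefSeq. Alternatives were 3 other scalings, no filter and a minimum of 50, pseudocounts of 4 and 16, limma without trend and robust estimation, a replicate block, other sets of libraries and leaving out each library. The fits were tested on simulated data. Figures were drawn with matplotlib 3.10.9.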

Additional observations from a re-analysis of the deposited data

Results flagged for a closer look

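The effect of VAV1 over its empty-vector cells differed from that of RAC1P29S over its own for 2 of the 9 genes, by limma's test of the difference. MET differed by 0.32 and TYRO3 by -0.50 on the log2 scale. Among the further genes named, the difference passed for KITLG (0.88), FGFRL1 (-0.27), FGFR3 (-1.23), DDR1 (-0.55), EPHA3 (-0.31), EPHA2 (-0.76), EPHB3 (-0.92) and PTPN11 (0.19), each as the VAV1 effect minus the RAC1P29S effect on the log2 scale. EPHA2 had the smallest adjusted p of these (4.66e-07), with a rise of 0.76 by VAV1 and of 1.51 by RAC1P29S, in 3 of 3 libraries each. The 2 experiments also differ in treatment, vehicle against none, which cannot be told apart from the difference between VAV1 and RAC1P29S. A scaling factor that differs between the experiments cancels, since each effect is taken within its own experiment. The calls of MET, TYRO3, FGFRL1, EPHA3 and PTPN11 were lost when single libraries were left out.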

How the results depend on the processing

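Calls of AXL and MET against the empty vector and under saracatinib kept their direction and passed under every alternative run, with AXL in VAV1 cells at 1.01 to 1.13 without 1 library at a time. Counts of the 9 genes moved as follows. With limma without trend and robust estimation, 2 were lower in VAV1 vehicle cells, 1 was lower in VAV1 saracatinib cells relative to the empty vector, and 0 were higher or lower in the difference of effects. PDGFRB under saracatinib lost its call with recomputed size factors (adjusted p = 0.0532), no filter (0.0551), limma without trend and robust estimation (0.0596) and all 15 libraries in 1 fit (0.220), each leaving 5 genes lower. A minimum of 50, or all 15 libraries in 1 fit, left 0 higher under saracatinib. A pseudocount of 16, or all 15 libraries in 1 fit, made 1 lower in RAC1P29S cells, and upper quartile scaling and quantile normalization left 0 higher in the difference of effects. Leaving out 1 library gave 4 to 6 higher and 1 to 2 lower with VAV1, 5 to 6 lower under saracatinib, 2 to 3 higher and 1 to 2 lower for VAV1 with saracatinib over the empty vector, 3 to 4 higher and 0 to 1 lower with RAC1P29S, and 0 to 2 higher and 0 to 1 lower in the difference. Values near 0 changed sign: AXL in VAV1 saracatinib cells over the empty vector was 0.0771 with quantile normalization and -0.0725 to 0.0454 without 1 library, TYRO3 with RAC1P29S was 0.0134 with upper quartile scaling, 0.0091 with quantile normalization and -0.0882 to 0.0544 without 1 library, TYRO3 under saracatinib was -0.21 to 0.0122, and DDR2 with RAC1P29S was -0.0385 to 0.10. The causes of these changes were not tested. Among further genes, those higher under saracatinib numbered 10 with a minimum of 50, and those higher in the difference of effects numbered 2 or 3 under other scalings.

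No pairing by replicate number was seen: residuals of libraries with the same number in different groups correlated at -0.05 to 0.01 over 12 pairs. Those with different numbers correlated at -0.03 to 0.05 over 24 pairs. With 3 libraries per group, these values cannot settle whether the cultures were handled in pairs. The replicate block changed 1 call among the 9 genes, PDGFRB under saracatinib (5 genes lower instead of 6), and gave 2 further genes higher in the difference of effects in place of 5.

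Depth in reads is unknown, so no counting error can be given for low genes such as PDGFRA.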
